A study of Mus musculus with 21 samples.

Results

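The genes described here were NF-kappaB subunits, their inhibitors and classic target genes, 10 of the 48474 rows of a bulk RNAseq count table. They were chosen by symbol. Nfkb1, Nfkb2, Rela and Relb encode subunits of the transcription factor, Nfkbia, Nfkbie and Tnfaip3 encode inhibitors, Birc3 encodes a ubiquitin ligase, and Tnf and Il1a encode cytokines. After a filter on low counts 18248 genes were tested, and 9 of the 10 members were among them. Only Tnf fell below the filter.

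The neocortex of 21 mice was sequenced, 11 labelled WT (4 in batch A, 7 in batch B) and 10 labelled TG (3 in batch A, 7 in batch B), where A and B were independent cohorts. TG mice were rNLS8 mice, which carry an NEFH-tTA driver and a doxycycline-repressed human TDP-43ΔNLS transgene, a form of TDP-43 without its nuclear localization signal that is made almost exclusively in neurons. WT mice are described by the submitters as monogenic control littermates, so that they may carry 1 of the 2 transgenes. At 17 to 19 weeks of age every mouse of both groups received 350 µg of a non-targeting antisense oligonucleotide (ASO) in 10 µL into the cerebral ventricle, and no group without injection was analysed here. Doxycycline chow (200 mg/kg) was given until 2 weeks after injection, and tissue was taken after 3 further weeks on chow without doxycycline. The sex of the mice was not given in the labels.

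NF-kappaB dimers are held in the cytoplasm by inhibitory IkB proteins. Signals from tumour necrosis factor, interleukin-1 and related receptors activate the IkB kinase (IKK) complex, which marks IkB for degradation and frees the dimers to enter the nucleus. In the noncanonical branch the precursor made from Nfkb2 is processed and pairs with RelB. Several IkB genes, Tnfaip3, Birc3 and the subunit genes are themselves targets of the factor, which makes feedback loops. In brain the pathway is best known in microglia, astrocytes and endothelial cells.

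Libraries held 20700912 to 22263809 counts per mouse. Of the 18248 genes tested 44.7% differed between rNLS8 and WT mice at an adjusted p under 0.05, 23.0% higher and 21.7% lower in rNLS8 mice. Excitatory cortical neuron markers were all detected, with Slc17a7 at 31930 ± 4038 (SD, n = 11) normalized counts in WT and 32987 ± 5940 (SD, n = 10) in rNLS8 mice. Of 12 microglial markers 7 were higher and 1, P2ry12, was lower in rNLS8 mice. Their summed level was 9790 to 11456 normalized counts in WT mice (median 10941) and 10438 to 16171 in rNLS8 mice (median 12285). Of 6 other neuronal markers, which include the interneuron genes Gad1 and Gad2, 5 were lower. Rbfox3 did not pass (-0.10 on the log2 scale, adjusted p = 0.189, edgeR). The sum of these markers, 85073 to 112274 in WT and 52960 to 76074 in rNLS8 mice, did not overlap between groups. Snap25 and Syt1, on average at 47235 and 31422 normalized counts in WT mice, made up most of it. Astrocyte markers were higher for 1 and lower for 5 of 7 genes, endothelial markers higher for 1 and lower for 2 of 7, and none of 7 oligodendrocyte markers passed the test. Of 10 lymphocyte markers only Cd4 was abundant enough to test (lower in rNLS8 mice), as was 1 of 7 neutrophil and monocyte markers, which did not pass. The sum of 5 choroid plexus markers, none of them called, ran from 441 to 47341 normalized counts among WT mice. The part of these shifts in the results below was not tested, and in bulk tissue fewer cells of a type and less RNA per cell cannot be told apart.

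Promoter sequence is shown for the 4 members in which a search for the binding pattern of the factor found a match. The other members with a window were searched in the same way. Windows of 250 bases before the transcription start were available from RefSeq (GRCm38.p6) for 8 of the 10 members, not for Nfkb1 and Relb. Genes with several starts have several windows, and a window can lie inside another transcript. The 3 Nfkb2 windows lie inside the gene span given below and hold 250, 167 and 234 bases of GENCODE vM21 exons, the Tnfaip3 window with matches holds 110, and those of Nfkbia and Nfkbie hold 0. All windows were searched on both strands for the NF-kappaB consensus decamer, a pattern that allows several bases at some of its 10 positions. Matches are in capitals. The Nfkbia window (chr12:55492648-55492897, minus strand) held 1 match, 20 to 29 bases before the start:
Nfkbia: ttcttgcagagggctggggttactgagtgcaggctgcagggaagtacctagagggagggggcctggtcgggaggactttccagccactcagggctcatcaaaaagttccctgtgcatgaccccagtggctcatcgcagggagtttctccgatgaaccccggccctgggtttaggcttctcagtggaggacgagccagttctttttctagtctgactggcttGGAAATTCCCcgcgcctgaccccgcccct
The Nfkbie window (chr17:45555450-45555699, plus strand) also held 1 match, 97 to 106 bases before the start:
Nfkbie: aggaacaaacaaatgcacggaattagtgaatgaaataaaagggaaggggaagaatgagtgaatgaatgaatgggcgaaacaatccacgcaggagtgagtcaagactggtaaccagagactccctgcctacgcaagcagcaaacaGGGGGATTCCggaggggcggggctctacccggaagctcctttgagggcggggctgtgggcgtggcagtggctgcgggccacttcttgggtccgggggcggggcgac
Tnfaip3 had 2 matches in 1 of its 2 windows, shown with their flanks (chr10:19015516-19015545 and chr10:19015411-19015432, minus strand):
Tnfaip3, distal: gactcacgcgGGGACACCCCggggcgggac
Tnfaip3, proximal: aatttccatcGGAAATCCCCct
Nfkb2 had a match in each of its 3 windows. In the window nearest the gene's 5′ end there were 3 matches, of which the first and another shifted by 1 base overlap. The first (chr19:46304688-46304717), the proximal one (chr19:46304716-46304736) and those of the other windows (chr19:46305449-46305478 and chr19:46305695-46305724), all on the plus strand, read:
Nfkb2, first window: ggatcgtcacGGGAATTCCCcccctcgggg
Nfkb2, first window, proximal: ggggccgaaaGGGGCTTTCCc
Nfkb2, middle window: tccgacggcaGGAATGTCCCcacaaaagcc
Nfkb2, last window: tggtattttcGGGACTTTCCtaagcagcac
The windows of Rela, Birc3, Tnf and Il1a held no match. A match was held by 3.90% of all 32851 promoter windows searched and found for 5.64% of the 12655 tested genes with a window. A match is a description of letters, not of binding. Nfkbia and Tnfaip3, which carry matches, did not pass the test between genotypes, whereas Nfkbie and Nfkb2 did.

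Of the 9 members tested 7 were higher in rNLS8 mice, none was lower, and Nfkbia and Tnfaip3 did not pass the test. This count stands beside 23.0% of all genes tested that were higher. The members' median log2 fold change was 0.30, beside -0.00069 over all genes tested. Fold changes, with standard errors (SE), came from a model with batch as covariate (edgeR's quasi-likelihood test), and p-values were adjusted over all genes tested. Levels are normalized counts, that is counts scaled to a common library size.

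**Figure D1:**
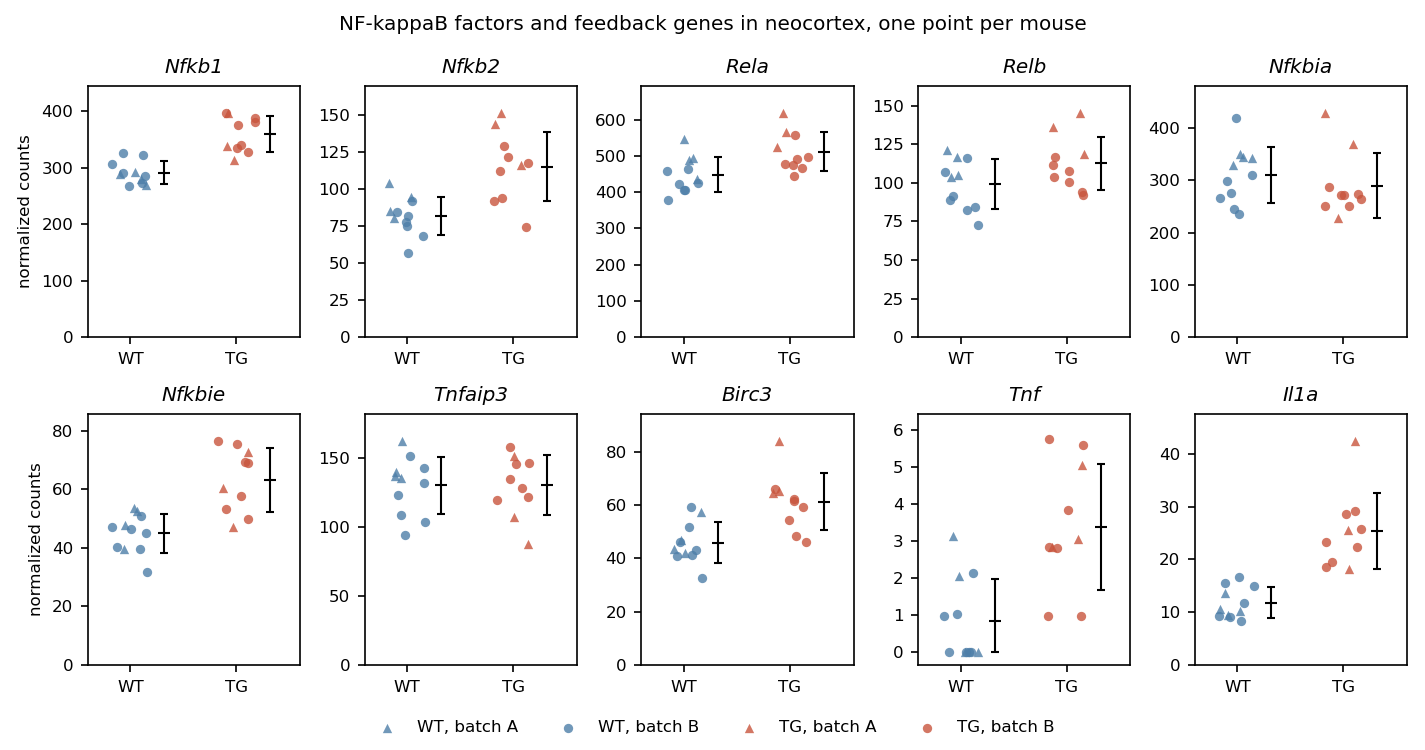
Normalized counts (y axis, 1 panel per gene, each on its own scale from 0) in each WT and TG (rNLS8) mouse, with triangles for batch A and circles for batch B. Black bars are the mean ± SD of each group, drawn no lower than 0 for Tnf. All 10 TG mice lie above all WT mice for Il1a, 9 do so for Nfkb1, and the groups overlap widely for Nfkbia and Tnfaip3.

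Among the subunits, Nfkb1 and Nfkb2 showed the clearest separation. Nfkb1 (chr3:135584655-135691969, GRCm38, minus strand), the source of the small subunit of the canonical dimer, had 267, 288 and 326 normalized counts (lowest, median, highest) in WT mice and 313, 358 and 397 in rNLS8 mice. In 9 of 10 rNLS8 mice the level was above every WT mouse. The log2 fold change was 0.30 (SE 0.053, adjusted p = 6.29e-05, edgeR).

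Nfkb2 (chr19:46300994-46312400, plus strand), whose product is processed in the noncanonical branch, had 56.6, 81.4 and 104 normalized counts in WT mice and 74.4, 117 and 151 in rNLS8 mice. The level exceeded every WT mouse in 7 of 10 rNLS8 mice, and the lowest rNLS8 mouse lay below the WT median. Nfkb2 rose by 0.51 on the log2 scale (SE 0.099, adjusted p = 0.000179, edgeR), a 1.42-fold change. Exons of the antisense transcript AC114539.1 cover 11.58% and those of Psd 6.52% of the Nfkb2 exons on the opposite strand. Whether the counting used strand is not given in the sources used here, so reads of these overlaps cannot be assigned.

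Rela (chr19:5637442-5648134, plus strand), the main transactivating subunit, had 379, 435 and 546 normalized counts in WT mice and 445, 495 and 618 in rNLS8 mice. All rNLS8 mice were above the WT median, but only 3 of 10 were above the highest WT mouse. The difference was small, 0.21 on the log2 scale (SE 0.050, adjusted p = 0.00161, edgeR).

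Relb (chr7:19606217-19629438, minus strand), the noncanonical partner, overlapped almost fully between groups, with 72.5, 104 and 121 normalized counts in WT mice and 91.8, 109 and 145 in rNLS8 mice. Only 2 rNLS8 mice, both of batch A, exceeded every WT mouse. The log2 fold change was 0.20 (SE 0.079) and the adjusted p of 0.0413 (edgeR) was close to the threshold. The call was lost in 19 of 33 alternative analyses, among them 12 of the 21 that left out 1 mouse, and the adjusted p reached 0.0785 without the rNLS8 mouse of batch A with the highest Relb level.

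Of the inhibitors, Nfkbie passed the test and Nfkbia and Tnfaip3 did not. Nfkbia (chr12:55489409-55492647, minus strand), the IkB-alpha gene and a standard readout of recent NF-kappaB activity, had 236, 309 and 418 normalized counts in WT mice and 229, 272 and 429 in rNLS8 mice. Only 2 of 10 rNLS8 mice were above the WT median, yet one of them was the highest of all 21 mice. The log2 fold change was -0.087 (SE 0.094, adjusted p = 0.486, edgeR), with a 95% confidence interval from -0.28 to 0.11.

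Nfkbie (chr17:45555700-45563169, plus strand) encodes IkB-epsilon, which acts in delayed negative feedback. It had 31.6, 46.3 and 53.7 normalized counts in WT mice and 46.9, 64.6 and 76.6 in rNLS8 mice. All rNLS8 mice lay above the WT median and 7 lay above every WT mouse. The log2 fold change was 0.49 (SE 0.11, adjusted p = 0.000737, edgeR), a 1.41-fold rise.

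Tnfaip3 (chr10:19000910-19015410, minus strand) encodes a ubiquitin-editing enzyme that ends the signal from tumour necrosis factor receptors. It had 94.3, 135 and 162 normalized counts in WT mice and 87.7, 132 and 158 in rNLS8 mice. No rNLS8 mouse exceeded the highest WT mouse, and 1 lay below the lowest. The log2 fold change was 0.0052 (SE 0.11, adjusted p = 0.974, edgeR), with a 95% interval from -0.21 to 0.22.

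Among targets that feed back on the pathway, Birc3 (chr9:7847468-7873205, minus strand), a cellular inhibitor of apoptosis that acts in receptor complexes, had 32.6, 43.6 and 59.1 normalized counts in WT mice and 46.0, 61.8 and 84.1 in rNLS8 mice. All rNLS8 mice were above the WT median and 7 were above every WT mouse. Birc3 rose by 0.42 on the log2 scale (SE 0.11, adjusted p = 0.00204, edgeR). Without the highest mouse the log2 fold change was 0.37.

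Il1a (chr2:129299609-129310186, minus strand), an alarm cytokine that signals through the interleukin-1 receptor, showed the largest fold change of the 9 members tested. Normalized counts were 8.23, 10.6 and 16.7 in WT mice and 18.2, 24.4 and 42.5 in rNLS8 mice. The groups did not overlap, which held for 3.85% of all genes tested with rNLS8 mice above WT mice, and for no other member. Il1a rose by 1.10 on the log2 scale (SE 0.17, adjusted p = 1.03e-05, edgeR), a 2.15-fold change, from 125 counts over the WT mice and 264 over the rNLS8 mice. Without the highest mouse it was 0.97. Exons of the antisense transcript Gm14023 cover 11.25% of its exons.

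The microglial marker sum was also higher in most rNLS8 mice, with 9 of 10 above the highest WT mouse. Among the markers C1qa rose by 0.62 (SE 0.077) and P2ry12 fell by 0.35 (SE 0.058) on the log2 scale, with adjusted p of 3.98e-07 and 2.62e-05 (edgeR). An rNLS8 mouse of batch A had the highest Il1a and Birc3 levels and the highest microglial sum of all 21 mice. The part of microglia in these values was not tested.

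Tnf (chr17:35199367-35202007, minus strand), a chief activator and target of the pathway, was barely detected. There were 9 counts over the 11 WT mice, of which 6 had none and the highest had 3, and 35 counts over the 10 rNLS8 mice, each with 1 to 6. All rNLS8 mice thus had at least 1 count, and 4 of 10 were above the highest WT mouse in normalized counts. CPM (counts scaled to the same library total) averaged 0.0397 ± 0.0527 (SD, n = 11) in WT and 0.157 ± 0.0794 (SD, n = 10) in rNLS8 mice. Genotypes thus differed by 0.118 CPM, with p = 0.00115 (two-sided exact permutation test, genotypes exchanged within batch). The ratio of counts summed over each group, each divided by the summed effective library sizes, was 3.98, with a 95% interval from counting error only of 1.88 to 9.42.

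In fits that kept Tnf, its log2 fold change was 1.90 (SE 0.51, adjusted p = 0.00543) in edgeR with no filter and 2.05 (SE 0.66, adjusted p = 0.00735) in DESeq2 with batch. The table listed Tnf in 4 rows with the same values in every mouse, and whether reads were divided among them or counted in each is not given in the sources used here. The first row is used here. If reads were divided among the rows, the level is higher, and the difference over the sum of the 4 rows was 0.471 CPM with the same p.

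Levels between genes were compared per kilobase of union exon length (GENCODE vM21). In WT mice Nfkbia was at 193 ± 33.4 and Rela at 146 ± 15.8 normalized counts per kilobase (SD, n = 11), ranges that touch. Relb at 25.5 ± 4.11 and Nfkb1 at 24.1 ± 1.67 followed and did not differ beyond their spread. Tnfaip3 at 17.97 ± 2.87, Nfkb2 at 17.9 ± 2.81 and Nfkbie at 14.8 ± 2.18 likewise overlapped. Birc3 at 9.15 ± 1.54, Il1a at 5.97 ± 1.498 and Tnf at 0.518 ± 0.688 normalized counts per kilobase were lowest. 

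**Figure D2:**
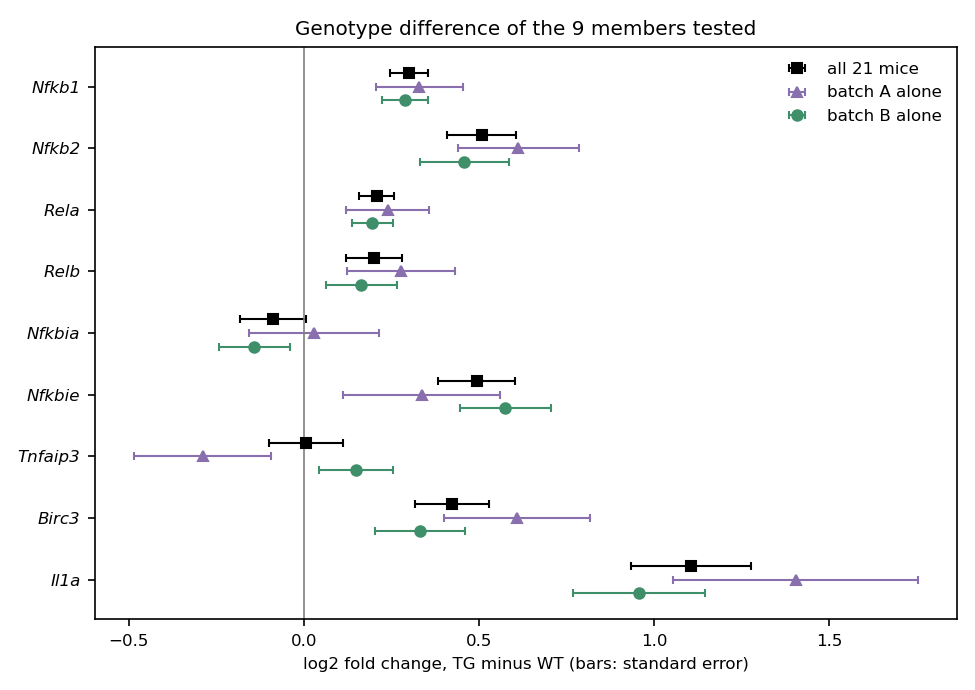
Log2 fold change, TG minus WT, with its standard error (x axis) for the 9 members tested (y axis), over all 21 mice (black squares), batch A alone (purple triangles) and batch B alone (green circles). The estimates for Nfkb1, Nfkb2, Rela, Relb, Nfkbie, Birc3 and Il1a lie above 0 in both batches, and Tnfaip3 lies at -0.29 in batch A and 0.15 in batch B.

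Each cohort was also tested alone. In batch A (4 WT, 3 rNLS8 mice) 11.8% of genes passed and 2 of 9 members did, Nfkb2 at 0.61 (adjusted p = 0.0415) and Il1a at 1.40 (adjusted p = 0.0257, edgeR). In batch B (7 and 7) 39.1% of genes and 6 of 9 members passed. These were Nfkb1 at 0.29, Nfkb2 at 0.46, Rela at 0.20, Nfkbie at 0.57, Birc3 at 0.33 and Il1a at 0.96 on the log2 scale. Relb did not pass in either batch, with 0.28 (adjusted p = 0.276) in A and 0.16 (adjusted p = 0.215) in B.

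Il1a averaged 10.996 ± 1.87 normalized counts in WT (SD, n = 4) and 28.7 ± 12.5 in rNLS8 mice (n = 3) in batch A, and 12.2 ± 3.49 and 23.9 ± 4.17 (n = 7 each) in batch B. Nfkbia averaged 341 ± 8.38 and 342 ± 103 in batch A, where the rNLS8 mice spread widely, and 293 ± 61.4 and 267 ± 13.2 in batch B.

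The genotype difference itself was compared between batches through an interaction term. It passed for 0% of all genes and for no member in edgeR. At an unadjusted p under 0.05 it did so for 1030 of the 18248 genes and 1 member, Tnfaip3. At an adjusted p under 0.05 DESeq2 called 1 gene and no member. For Tnfaip3 the effect was 0.47 higher on the log2 scale in batch B than in batch A (SE 0.21, unadjusted p = 0.0328, adjusted p = 0.855). It averaged 143 ± 12.7 normalized counts in WT and 115 ± 32.5 in rNLS8 mice of batch A, and 122 ± 21.1 and 136 ± 14.3 in batch B.

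To compare related members within a mouse, 3 log2 ratios were formed after the members' values had been seen. They are given without a test, since the pairs were chosen for their values. Nfkbie relative to Nfkbia averaged -2.73 ± 0.38 (SD, n = 11) in WT and -2.16 ± 0.30 (SD, n = 10) in rNLS8 mice on the log2 scale. The 6 highest rNLS8 mice lay above every WT mouse. The means differed by 0.57, by 0.33 in batch A and by 0.67 in batch B.

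Birc3 relative to Tnfaip3 averaged -1.46 ± 0.30 in WT and -1.06 ± 0.32 in rNLS8 mice. The means differed by 0.40, by 0.90 in batch A and by 0.17 in batch B. Nfkb2 relative to Rela averaged -2.43 ± 0.20 in WT and -2.15 ± 0.23 in rNLS8 mice, 0.28 apart, with 0.36 in batch A and 0.24 in batch B.

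**Figure D3:**
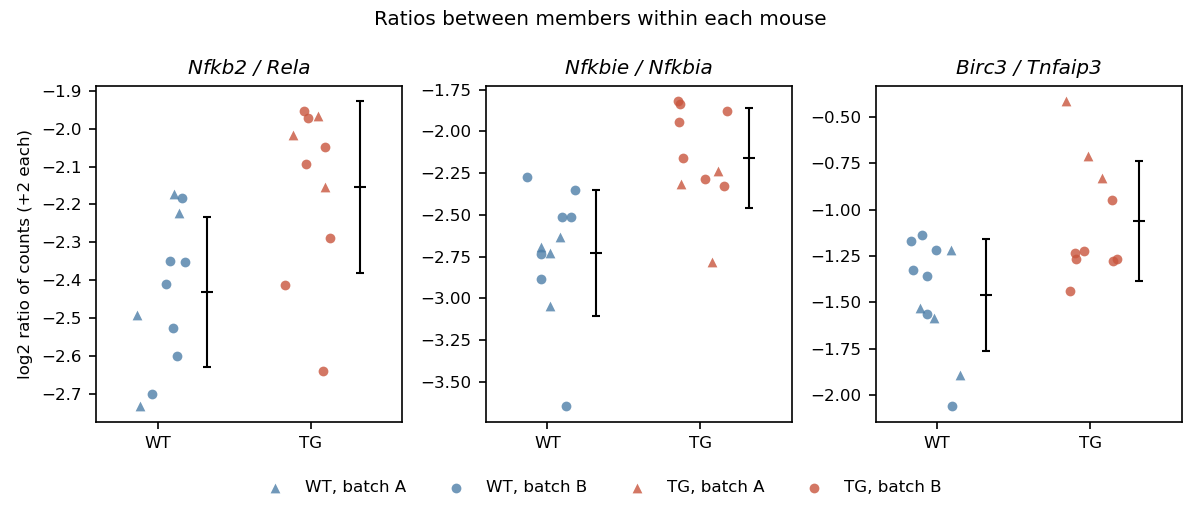
Log2 ratio of raw counts, with 2 added to each (y axis), of Nfkb2 to Rela, Nfkbie to Nfkbia and Birc3 to Tnfaip3 in each WT and TG mouse. Triangles are batch A, circles are batch B and black bars are the mean ± SD. For Nfkbie to Nfkbia 6 of 10 TG mice lie above every WT mouse, against 7 for Nfkb2 to Rela and 4 for Birc3 to Tnfaip3.

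Other genes of the pathway were taken from 6 lists of 86 genes, of which 70 were tested. Of these 37 passed, 23 higher and 14 lower in rNLS8 mice (52.9%, beside 44.7% of all genes), with a median log2 fold change of 0.088.

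**Figure D4:**
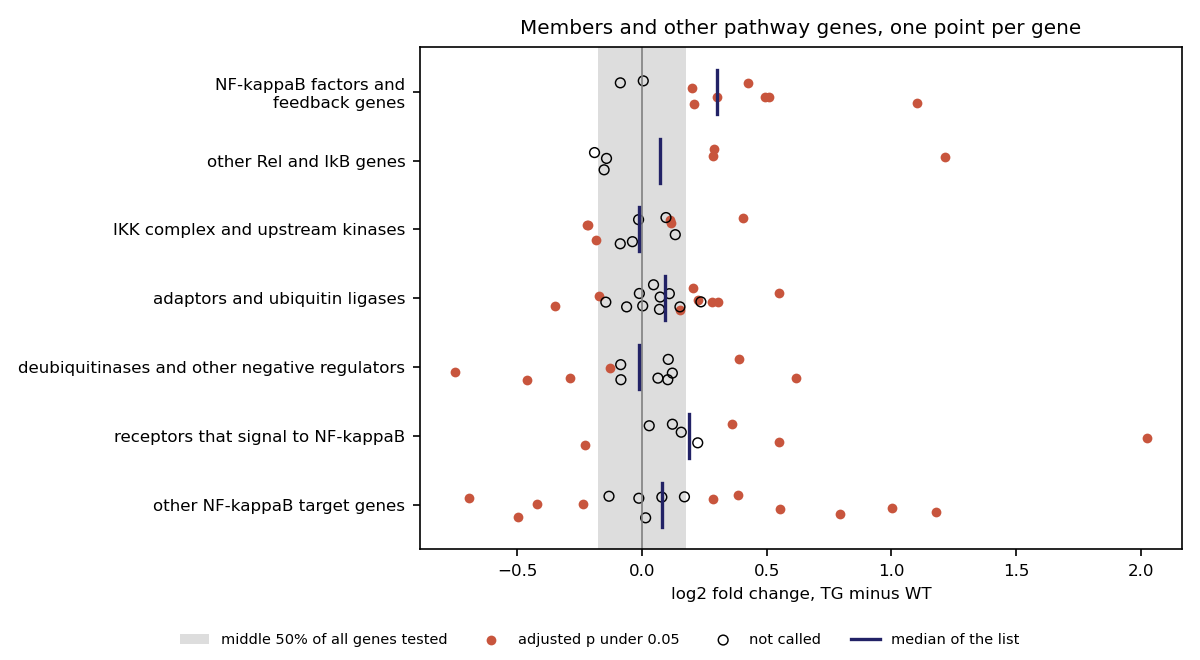
Log2 fold change, TG minus WT (x axis), of each tested gene of the members and of 6 pathway lists (y axis), filled red where the adjusted p is under 0.05, with the list median as a bar and the middle 50% of all genes tested in grey. The median of the members is 0.30, and those of the other lists run from -0.014 to 0.19.

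Among the other Rel and IkB genes 3 of 6 were higher and none lower (50%, beside 44.7% of all genes tested). Nfkbib, another inhibitor, rose by 0.29 (SE 0.070, adjusted p = 0.00170) and Nfkbil1 by 0.28 (SE 0.082, adjusted p = 0.00677) on the log2 scale. Bcl3, a nuclear coactivator, rose by 1.22 (SE 0.31, adjusted p = 0.00217, edgeR) from a low level of 8.47 ± 6.38 normalized counts in WT to 19.5 ± 8.47 in rNLS8 mice. The WT median of 7.37 lay below the filter's minimum count of 10, against 18.2 in rNLS8 mice. Bcl3 thus entered the test mainly through the group where it is high, which limits its call. Rel itself was at 98.7 ± 15.1 and 86.3 ± 18.7 normalized counts (adjusted p = 0.220).

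In the list of the IKK complex and upstream kinases 3 of 11 genes were higher and 3 lower (54.5%, beside 44.7% of all genes tested). Of the core subunits, Ikbkg and Ikbkb each fell by 0.22 on the log2 scale (SE 0.043 and 0.045), while Chuk did not pass the test (-0.038, SE 0.12, adjusted p = 0.826, edgeR). In addition Tbk1, a related kinase, fell by 0.18 (SE 0.048). Tab3, an adaptor of the kinase Map3k7, rose by 0.41 (SE 0.065) and Tab2 by 0.12 (SE 0.033). Map3k7 was higher by 0.11 (adjusted p = 0.0306, edgeR), a call lost in 5 of 33 alternatives. The neuronal marker sum and 5 of 7 astrocyte markers were lower too. The sum of excitatory neuron markers overlapped between groups (median 40955 in WT and 40054 in rNLS8 mice). The part of these markers' cells was not tested.

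Among adaptors and ubiquitin ligases 6 of 18 were higher and 2 lower. This is 44.4% of the list, beside 44.7% of all genes tested. Rnf31, Sharpin and Rbck1, which form the linear ubiquitin chain assembly complex, were singled out after their values were seen. Rnf31 rose by 0.55 (SE 0.056, adjusted p = 2.48e-08), Sharpin by 0.28 (SE 0.059, adjusted p = 0.000425) and Rbck1 by 0.20 (SE 0.048, adjusted p = 0.00121, edgeR). Rnf31, the catalytic subunit, had 368 to 474 normalized counts in WT and 543 to 711 in rNLS8 mice, without overlap. Traf6, a ubiquitin ligase of interleukin-1 signalling, rose by 0.30 (SE 0.081). Tradd, an adaptor of the tumour necrosis factor receptor, fell by 0.35 (SE 0.090) and Traf3, a brake on the noncanonical branch, by 0.17 (SE 0.061, adjusted p = 0.0224, edgeR). Traf3 did not pass within batch A (adjusted p = 0.188) or within batch B (0.111). Ripk1 was higher by 0.22 (adjusted p = 0.0322, edgeR), a call lost in 7 of 33 alternatives and without the rNLS8 mouse with the highest Il1a level (adjusted p = 0.0949).

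Of 12 negative regulators tested 2 were higher and 4 lower (50%, beside 44.7% of all genes tested). Cyld, a deubiquitinase of linear and lysine-linked chains, fell by 0.75 (SE 0.073, adjusted p = 1.09e-08, edgeR). It had 2959 to 4289 normalized counts in WT and 1451 to 2534 in rNLS8 mice. Rnf11, which works with Tnfaip3, fell by 0.46 (SE 0.045) and Commd1 by 0.29 (SE 0.080). Otulin, which removes linear chains, was lower by 0.13 (adjusted p = 0.0293, edgeR), a call lost in 7 of 33 alternatives. N4bp1 rose by 0.39 (SE 0.053), and Zc3h12a, an RNase that degrades cytokine transcripts, by 0.62 (SE 0.18) at a mean of 15.1 ± 4.69 normalized counts in WT and 23.0 ± 7.42 in rNLS8 mice.

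Of 13 receptors and receptor antagonists 8 were tested, 3 higher and 1 lower (50%, beside 44.7% of all genes tested). Tnfrsf12a, the receptor for the cytokine TWEAK, had 38.2, 56.6 and 90.4 normalized counts in WT and 157, 210 and 456 in rNLS8 mice, without overlap. Its log2 fold change of 2.03 (SE 0.15, adjusted p = 7.53e-11, edgeR) was the largest in the 6 lists. Il1r1, the receptor for the Il1a product, rose by 0.55 (SE 0.11, adjusted p = 0.000146) and Tnfrsf1a, the main receptor for the Tnf product, by 0.36 (SE 0.088, adjusted p = 0.00170, edgeR). Tnfrsf11a was lower by 0.23 (adjusted p = 0.0489, edgeR), but the call was lost in 20 of 33 alternatives.

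Of 25 other target genes 15 were tested, 6 higher and 4 lower (66.7%, beside 44.7% of all genes tested). Icam1, an adhesion molecule, rose from 38.1, 55.7 and 85.5 normalized counts in WT to 81.3, 103 and 196 in rNLS8 mice, and the difference on the log2 scale was 1.003 (SE 0.13, adjusted p = 8.96e-07, edgeR). Psmb9 rose by 1.18 (SE 0.13) and Tapbp by 0.79 (SE 0.075), both antigen presentation genes that interferon also induces, and Ier3, an immediate early gene, by 0.55 (SE 0.093). Ptgs2, a prostaglandin synthase that neurons also express, fell by 0.69 (SE 0.11) and Sod2, the mitochondrial superoxide dismutase, by 0.50 (SE 0.060). Of the 4 called targets left, Csf1 rose by 0.39 (SE 0.064) and Gadd45b by 0.28 (SE 0.11, adjusted p = 0.0325, edgeR), and Ccnd1 fell by 0.42 (SE 0.059) and Bcl2l1 by 0.24 (SE 0.046). Gadd45b did not pass within batch A (adjusted p = 0.314) or within batch B (0.0886). Bcl3, Rel, Chuk, Traf3, Zc3h12a, Csf1, Gadd45b, Ccnd1 and Bcl2l1, and the targets too low to test, stood outside the rule for named genes and were chosen after their values were seen.

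The other 10 target genes were too low to test over all 21 mice, and their counts, summed over all WT and all rNLS8 mice respectively, are given as values only. The cytokine genes had 52 and 97 counts for Il1b, 14 and 14 for Il6, 12 and 54 for Lta, and 79 and 70 for Ltb. The chemokine genes had 1 and 22 counts for Cxcl1, 3 and 0 for Cxcl2, and 23 and 137 for Ccl2. The adhesion molecule gene Sele had 15 and 17 counts, and the survival gene Bcl2a1a had 52 and 130. In batch A alone Bcl2a1a averaged 5.48 ± 3.41 normalized counts in WT (SD, n = 4) and 20.3 ± 8.12 in rNLS8 mice (n = 3). It passed the filter there only through the rNLS8 mice, so no test is printed for it. Lcn2 had 32 and 155 counts, but 1 rNLS8 mouse held 100 of the 155, and without the highest mouse of each group the sums were 26 and 55. For Ccl2 the highest mouse of each group held 7 and 43 counts, which leaves 16 and 94.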

How the data were processed

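Polyadenylated RNA of 21 neocortices was sequenced in pairs of 100 bp reads. The table as deposited holds raw read counts, whole numbers for each symbol. Reads were aligned to GRCm38, and the submitters' processing notes name HISAT, HISAT2, Bowtie, Bowtie2 and RSEM without roles or versions. The counting program is not given in the sources used here. Groups, batches and mouse numbers came from the labels. No label says more on separate sampling than the mouse number, and p-values measure the spread between mice.

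Genes were kept by filterByExpr (minimum count 10, minimum total 15, by genotype), scaled by TMM and tested with edgeR 4.0.16 in R 4.3.3 (quasi-likelihood, batch and genotype, Benjamini-Hochberg over 18248 genes, threshold 0.05). Exact permutations exchanged genotypes within batch (120120 arrangements). Log2 ratios used a prior count of 2. Alternatives were DESeq2 1.42.0, other scalings and filters, each batch alone, Xist as covariate, copies left out and each mouse left out. Scripts were tested on simulated data. Among 100 same-group pairs of libraries none held identical values, and the smallest chi-square per degree of freedom was 3.85, so each mouse counted as 1 replicate.

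Members and lists were chosen with earlier results of these data known. All 10 members were named, and per list up to 6 called genes of at least 20 counts on average, those whose log2 fold change was largest in size. Gene positions and promoter windows came from RefSeq and exon lengths from GENCODE vM21, both on GRCm38. Only the 250 bases upstream of each start were used. Intervals on counts cover counting error only.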

Additional observations from a re-analysis of the deposited data

Results flagged for a closer look

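In the 10 rNLS8 mice the values of 10 members were examined for a mouse far from the others, a check that chance alone meets in about 1 of 20 groups. One and the same rNLS8 mouse of batch A stood apart for Il1a and Birc3. Its Il1a level was 42.5 normalized counts, and the gap to the next mouse took 0.547 of the group's range, above the critical value for this group size. Its Birc3 level was 84.1 normalized counts, with a gap of 0.476 of the range. The same mouse had the highest summed microglial markers (16171 normalized counts) and the lowest summed neuronal markers (52960). Without it the log2 fold change of Il1a was 0.97 (adjusted p = 1.93e-05) and that of Birc3 was 0.37 (adjusted p = 0.00618, edgeR).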

How the results depend on the processing

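Batch A alone (3 rNLS8 mice) gave the lowest counts of calls, 2195 genes, 2 members and 11 pathway genes, against 8154, 7 and 37 in all mice. By list it called 0 other Rel and IkB genes, 0 IKK genes and upstream kinases and 1 adaptor or ligase. It also called 3 negative regulators, 1 receptor and 6 targets, with Bcl2a1a among these targets. With no filter 16 targets were called, since more genes were tested. In batch A alone the Tnf difference was 0.110 CPM (exact permutation p = 0.143), that of Nfkbia was 0.029 and that of Tnfaip3 was -0.29. Tnfaip3 was -0.00031 in DESeq2 without batch, and leaving out each mouse gave -0.038 to 0.074 on either side of 0. Members called when each mouse was left out numbered 6 to 7, genes 7805 to 8362 and pathway genes 34 to 39. Scaling by library size alone raised the median of all genes by 0.076 and the share of higher calls from 51.4% to 67.9%, and with it, as with upper-quartile scaling, 7 members were called higher and none lower. Requiring 10 counts in every mouse removed Il1a. The cause of these changes was not tested unless stated. No paired analysis was possible because no mouse number occurs in both groups. Low counts limit Tnf most.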
